A study of Homo sapiens with 12 samples.

Results

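Metallothionein transcripts were examined in HaCaT, an immortalised cell line of human keratinocyte origin. The genes were the 8 named MT2A, MT1A, MT1E, MT1F, MT1G, MT1H, MT1M and MT1X, taken by symbol from the 58735 genes of the deposited table, in which each symbol has 1 identifier. Of these 8 genes, 4 (MT2A, MT1E, MT1X and MT1F) reached a mean of 0.5 FPKM in at least 1 group and were tested. FPKM is fragments per kilobase of gene length scaled to the size of the library, so comparisons between genes depend on the gene length used. The 4 groups had 3 libraries each. PHGDH-siRNA+Mix cells were transfected with siRNA against PHGDH and then given for 24 h the treatment that the labels call Mix, and PHGDH-siRNA cells had that siRNA without Mix. Control-siRNA+Mix cells had control siRNA and the same 24 h of Mix, and Control-siRNA cells had control siRNA without Mix. All cells were thus transfected. The labels do not say what Mix contains, which siRNA sequences were used, or whether each library stems from its own culture, so p-values measure the spread between these libraries, which may be technical. In RNA from whole cultures, fewer cells expressing a gene and less RNA per cell cannot be told apart.

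Metallothioneins are small proteins, rich in cysteine, that hold zinc and copper, and also toxic metals such as cadmium, through their thiol groups. Their transcription is known to respond to zinc through the sensor MTF1, which binds metal response elements in their promoters, and also to glucocorticoids and inflammatory cytokines. In skin they are found mainly in basal and proliferating keratinocytes.

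All 8 genes lie in 1 cluster on hg38 chromosome 16, from 56608199 to 56684196, and all but MT1G are on the plus strand. The coding sequences of the 4 expressed genes, from the GENCODE 29 transcripts MT2A-201, MT1E-201, MT1X-201 and MT1F-201, are shown from the start codon up to the stop codon, to make visible how alike the genes are whose reads were told apart. Capitals mark the cysteine codons.
MT2A: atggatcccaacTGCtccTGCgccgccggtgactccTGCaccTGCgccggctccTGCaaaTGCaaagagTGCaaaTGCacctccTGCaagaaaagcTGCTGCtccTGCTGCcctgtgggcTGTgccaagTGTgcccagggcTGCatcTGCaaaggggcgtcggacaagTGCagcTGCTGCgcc
MT1E: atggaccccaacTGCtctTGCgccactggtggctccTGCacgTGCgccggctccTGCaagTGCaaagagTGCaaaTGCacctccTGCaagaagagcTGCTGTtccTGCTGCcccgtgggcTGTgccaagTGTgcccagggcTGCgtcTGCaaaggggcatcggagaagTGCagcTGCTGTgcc
MT1X: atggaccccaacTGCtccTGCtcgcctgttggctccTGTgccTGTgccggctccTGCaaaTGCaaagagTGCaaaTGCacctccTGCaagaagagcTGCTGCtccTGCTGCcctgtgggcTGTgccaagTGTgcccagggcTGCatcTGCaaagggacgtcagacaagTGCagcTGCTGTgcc
MT1F: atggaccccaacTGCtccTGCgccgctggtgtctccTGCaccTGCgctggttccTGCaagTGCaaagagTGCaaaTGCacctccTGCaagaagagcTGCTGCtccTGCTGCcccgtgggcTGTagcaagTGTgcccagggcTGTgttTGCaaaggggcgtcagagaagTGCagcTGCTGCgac
Each of the 8 coding sequences had 61 codons, of which 20 (32.8%) were cysteine codons, at the same positions in every gene. Over the 28 pairs of genes, 88.5% to 95.1% of coding bases were identical.

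Recovered reads numbered 16403845 to 20901128 per library. The PHGDH transcript, the target of the siRNA, averaged 14.6 ± 3.96 FPKM in PHGDH-siRNA+Mix and 29.9 ± 2.88 FPKM in Control-siRNA+Mix, and 20.2 ± 3.44 FPKM in PHGDH-siRNA and 46.2 ± 9.84 FPKM in Control-siRNA (SD, n = 3 each), with no overlap in either pair. Lower levels without overlap were found for 7.33% of tested genes with Mix and 5.3% without. Of 16 keratinocyte markers, 15 averaged 1 FPKM or more, and KRT5, KRT14 and TP63 were present in every library. None of 10 fibroblast, 8 melanocyte or 8 endothelial markers averaged 1 FPKM, and of 11 leukocyte markers CD14 did. TYR, KIT, PTPRC, CD3D, FCGR3A, CD207, KDR and EMCN were at 0 in all 12 libraries. Replicate 2 of PHGDH-siRNA+Mix and replicate 2 of PHGDH-siRNA stood apart within their groups. Of 14577 genes tested, 287 (1.97%) were over 1 log2 unit higher and 326 (2.24%) over 1 log2 unit lower in both. Calls of metallothionein genes and pseudogenes, and counts of listed genes, that change without these libraries are given both ways.

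The 4 expressed genes covered a wide range of levels in the same order in all 4 group means: MT2A was highest, then MT1E, MT1X and MT1F. MT2A ranged from 211 to 1651 FPKM over the 12 libraries and MT1E from 58.7 to 256 FPKM. MT1X ranged from 3.38 to 16.8 FPKM and MT1F from 1.26 to 13.8 FPKM. MT2A exceeded MT1E, and MT1E exceeded MT1X, in every library. MT1X and MT1F overlapped in both PHGDH-siRNA groups and not in the control-siRNA groups. The gene length in the deposited table was 1.65 (MT2A), 1.49 (MT1E), 3.94 (MT1X) and 2.74 (MT1F) times the length of the coding transcript named above. Per length of that transcript the order of the group means was the same, and in Control-siRNA+Mix the levels were 2156 ± 112 FPKM for MT2A, 290.1 ± 36.0 FPKM for MT1E, 30.8 ± 6.57 FPKM for MT1X and 9.68 ± 1.85 FPKM for MT1F.

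**Figure D1:**
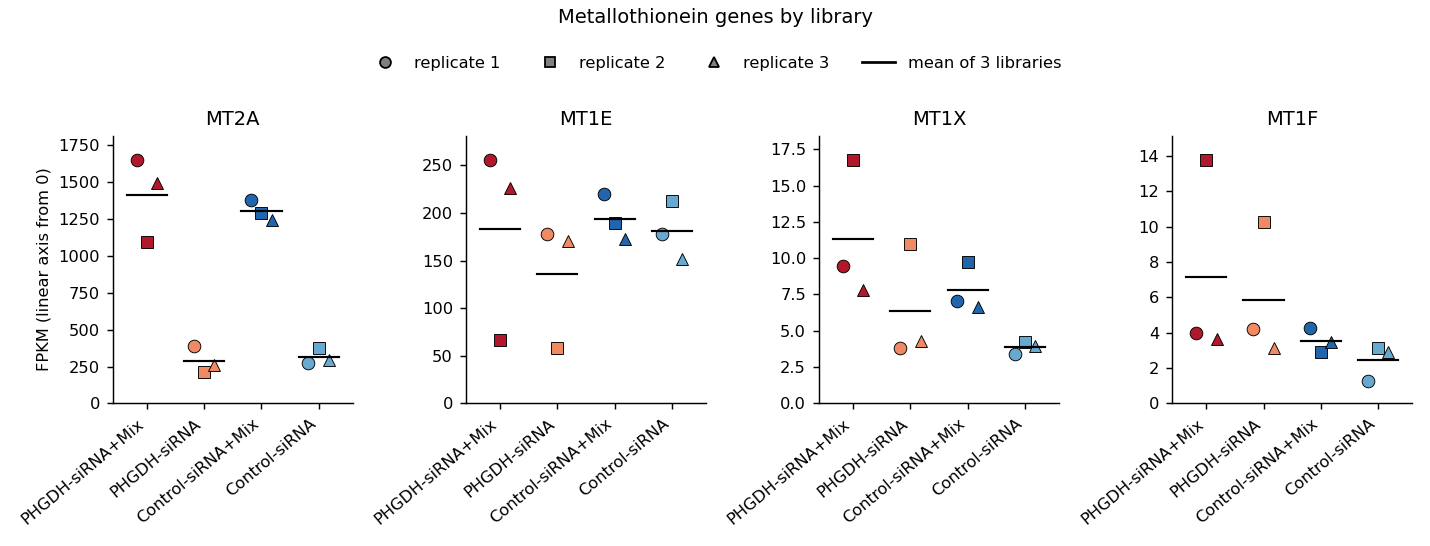
FPKM of the 4 expressed metallothionein genes (vertical axes, linear and from 0, a different scale for each gene) in each library of the 4 groups (horizontal axis); symbols mark replicate numbers and lines the mean of 3 libraries. MT2A lies at 1092 to 1651 FPKM in the libraries with Mix and at 211 to 386 FPKM in those without, and replicate 2 of both PHGDH-siRNA groups is low in MT1E and high in MT1X and MT1F.

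MT2A (ENSG00000125148, chromosome 16, 56608199 to 56609497), in many human cells the most abundant metallothionein transcript, was more than 4 times as high with Mix in both siRNA arms. It had 1651, 1092 and 1496 FPKM in PHGDH-siRNA+Mix, against 386, 211 and 264 FPKM in PHGDH-siRNA. It had 1377, 1292 and 1244 FPKM in Control-siRNA+Mix, against 274, 374.5 and 297 FPKM in Control-siRNA. The lowest library with Mix was thus far above the highest without it, in both arms; groups did not overlap in this direction for 11.3% of tested genes under PHGDH siRNA and 19.1% under control siRNA. The means were 1413 ± 289 against 287 ± 90.0 FPKM in the PHGDH-siRNA arm, 4.92-fold, and 1304 ± 67.5 against 315 ± 52.5 FPKM in the control-siRNA arm, 4.14-fold (SD, n = 3). Changes were tested with limma, a linear model fitted to log2(FPKM + 1) of all 14577 tested genes and 12 libraries, and are given as log2 fold changes with their standard error (SE); a gene was called at an adjusted p below 0.05. MT2A rose by 2.32 under PHGDH siRNA (SE 0.232, limma adjusted p = 0.000151, 95% interval 1.81 to 2.83) and by 2.06 under control siRNA (SE 0.232, limma adjusted p = 0.000251, 95% interval 1.55 to 2.57). In this fit it was the one metallothionein gene of the 4 tested that was called in either arm. Over all tested genes, 5.22% were called higher with Mix under PHGDH siRNA and 5.62% under control siRNA. Same-numbered libraries of PHGDH-siRNA+Mix and PHGDH-siRNA deviated together from their group means (correlations of 0.459 to 0.775 across genes), so this arm was also fitted alone with the replicate number as a block. The labels do not state this pairing, and no correlation was computed between libraries of unlike number. MT2A, MT1X and MT1E were then called, where 27.1% of tested genes were called in either direction. By size of the increase MT2A ranked 64 of 14577 genes under PHGDH siRNA and 114 under control siRNA, and by level it ranked 26 in PHGDH-siRNA+Mix and 27 in Control-siRNA+Mix. The summed level of the 16 keratinocyte markers also ranged higher with Mix, with overlap under PHGDH siRNA alone, at 5581 to 9404 against 2759 to 7569 FPKM in the PHGDH-siRNA arm and 5307 to 5708 against 2224 to 3199 FPKM in the control-siRNA arm. Its part in the MT2A result was not tested.

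MT1E (ENSG00000169715, chromosome 16, 56625475 to 56627112), the next most abundant member, had small changes with Mix beside those of MT2A, called under PHGDH siRNA with the replicate block alone. It had 256, 66.2 and 227 FPKM in PHGDH-siRNA+Mix, against 178, 58.7 and 171 FPKM in PHGDH-siRNA. It had 220.1, 189.9 and 172 FPKM in Control-siRNA+Mix, against 178, 213 and 151 FPKM in Control-siRNA. The groups overlapped in both arms, but each PHGDH-siRNA+Mix library was above the PHGDH-siRNA library of the same number. The log2 fold change with Mix was 0.37 under PHGDH siRNA (SE 0.509, limma adjusted p = 0.74, 95% interval -0.76 to 1.49) and 0.11 under control siRNA (SE 0.509, limma adjusted p = 0.944, 95% interval -1.01 to 1.23). With the replicate block in the PHGDH-siRNA arm MT1E was called at 0.37 (SE 0.0844, limma adjusted p = 0.0391, 95% interval 0.14 to 0.59), and it was called in no other of 20 alternatives there (limma adjusted p of 0.0391 to 0.994). Without the replicate 2 libraries of both PHGDH-siRNA groups the values were 0.46 (limma adjusted p = 0.123, 95% interval 0.06 to 0.86) and 0.11 (limma adjusted p = 0.656, 95% interval -0.22 to 0.43). In the control-siRNA arm the upper end of that interval lay below the lower end of the interval of MT2A in the same fit, 1.68.

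MT1X (ENSG00000187193, chromosome 16, 56682424 to 56684196) averaged 1.78-fold and 2.03-fold higher levels with Mix in the PHGDH-siRNA and control-siRNA arms, called in some fits and not in others. It had 9.43, 16.8 and 7.78 FPKM in PHGDH-siRNA+Mix, against 3.85, 10.99 and 4.29 FPKM in PHGDH-siRNA. It had 7.06, 9.73 and 6.67 FPKM in Control-siRNA+Mix, against 3.38, 4.26 and 3.94 FPKM in Control-siRNA. The groups did not overlap in the control-siRNA arm, a pattern that 19.1% of tested genes shared. In the PHGDH-siRNA arm they overlapped, with replicate 2 the highest library of both groups, but each library with Mix was above the library of the same number without it. The log2 fold change was 0.80 under PHGDH siRNA (SE 0.34, limma adjusted p = 0.194) and 0.85 under control siRNA (SE 0.34, limma adjusted p = 0.166). With the replicate block in the PHGDH-siRNA arm MT1X was called at 0.80 (SE 0.12, limma adjusted p = 0.0155, 95% interval 0.48 to 1.12). Without the replicate 2 libraries of both PHGDH-siRNA groups MT1X was called in both arms, at 0.92 under PHGDH siRNA (limma adjusted p = 0.00846) and 0.85 under control siRNA (limma adjusted p = 0.00345), where 15.1% and 21% of all tested genes were called. With PHGDH-siRNA replicate 2 alone left out, it was called at 1.21 under PHGDH siRNA (limma adjusted p = 0.0169) and 0.85 under control siRNA (limma adjusted p = 0.0449). The limma adjusted p ranged from 0.00846 to 0.485 over 20 alternatives under PHGDH siRNA and from 0.00345 to 0.413 over 19 under control siRNA.

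MT1F (ENSG00000198417, chromosome 16, 56657694 to 56660698), the least abundant of the 4, did not pass with Mix. It had 4.004, 13.8 and 3.66 FPKM in PHGDH-siRNA+Mix, against 4.19, 10.2 and 3.12 FPKM in PHGDH-siRNA. It had 4.25, 2.91 and 3.45 FPKM in Control-siRNA+Mix, against 1.26, 3.14 and 2.89 FPKM in Control-siRNA. The groups overlapped in both arms. The log2 fold change was 0.17 under PHGDH siRNA (limma adjusted p = 0.875, 95% interval -0.86 to 1.2) and 0.44 under control siRNA (limma adjusted p = 0.673, 95% interval -0.59 to 1.47). The 43 to 481 reads per library behind these values were the fewest of the 4 tested genes.

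The other 4 genes were hardly seen, with or without Mix. MT1A and MT1H had 0 reads in all 12 libraries, MT1G had 1 read and MT1M had 2. The MT1G read was in PHGDH-siRNA replicate 2, and the MT1M reads were in PHGDH-siRNA+Mix replicate 2 and PHGDH-siRNA replicate 2. A limit of 3 reads per library corresponds to 0.39 to 0.458 FPKM for MT1A, 0.213 to 0.251 FPKM for MT1H, 0.206 to 0.242 FPKM for MT1G and 0.164 to 0.192 FPKM for MT1M, counting error only. Levels above these were not present in the table for any library, and no fold change was formed.

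**Figure D2:**
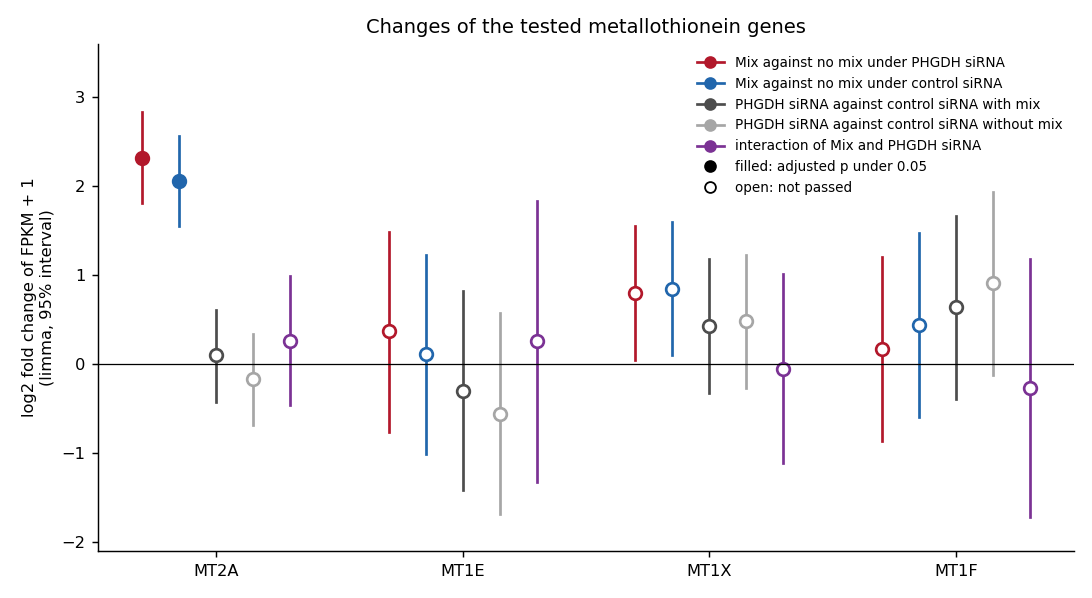
Log2 fold changes of FPKM + 1 (vertical axis) of the 4 tested metallothionein genes (horizontal axis) in 5 comparisons, as points with 95% intervals from limma; filled points passed an adjusted p of 0.05. MT2A passed with Mix under both siRNAs, at 2.32 and 2.06, and every other point is open in this fit of 12 libraries without a replicate block.

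PHGDH siRNA against control siRNA called none of the 4 genes, in any of the comparisons made. MT2A averaged 1413 ± 289 FPKM in PHGDH-siRNA+Mix and 1304 ± 67.5 FPKM in Control-siRNA+Mix (log2 fold change 0.10, 95% interval -0.42 to 0.61, limma adjusted p = 0.979). Without Mix it averaged 287 ± 90.0 FPKM in PHGDH-siRNA and 315 ± 52.5 FPKM in Control-siRNA (-0.17, 95% interval -0.68 to 0.34, limma adjusted p = 1). The groups overlapped for all 4 genes with and without Mix. Over all tested genes, 7.01% lay higher and 7.33% lower without overlap with Mix, and 4.89% and 5.3% without Mix. MT1F had the highest mean ratios, 7.14 ± 5.73 against 3.54 ± 0.677 FPKM with Mix and 5.85 ± 3.84 against 2.43 ± 1.02 FPKM without. Averaged over both Mix conditions, its log2 fold change was 0.77 (SE 0.33, limma adjusted p = 0.421). That value was 0.29 without the replicate 2 libraries (limma adjusted p = 0.445, 95% interval -0.12 to 0.70). MT1X stood at 0.46 in that averaged contrast (limma adjusted p = 0.521) and at 0.10 without the replicate 2 libraries (limma adjusted p = 0.7). MT1E stood at -0.43 (limma adjusted p = 0.718) and at 0.14 without them (limma adjusted p = 0.579). PHGDH itself, the siRNA target, was not called with Mix (-1.01, limma adjusted p = 0.2003) or without Mix (-1.14, limma adjusted p = 0.1283). It was called lower in the averaged contrast (-1.08, limma adjusted p = 0.0197). The contrasts with and without Mix thus missed the knockdown, so uncalled metallothionein genes may still differ there. Few genes of any kind were called: 0.0206% of tested genes with Mix, 0.0412% without Mix and 0.487% averaged. A raw p under 0.05 was found for 834, 935 and 1627 genes in these 3 comparisons, and of the metallothionein genes for MT1F in the averaged contrast only. The voom fit of recovered reads called none of the 4 either.

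Whether the Mix response differed between the siRNA arms was tested as an interaction, the log2 change with Mix in the PHGDH-siRNA arm less the one in the control-siRNA arm. It was 0.26 for MT2A (SE 0.328, 95% interval -0.46 to 0.99), 0.26 for MT1E (95% interval -1.33 to 1.84), -0.05 for MT1X (95% interval -1.11 to 1.01) and -0.27 for MT1F (95% interval -1.72 to 1.18). The limma adjusted p was 1.00 for each. Over all genes limma and voom both called 0 (0% of tested genes), and limma found 250 at a raw p under 0.05. These intervals do not show that the responses were alike.

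MT2A made up more of the summed metallothionein level in every library with Mix than in any library without it. The 8 genes summed to 1614 ± 380.5 FPKM in PHGDH-siRNA+Mix and 435 ± 141 FPKM in PHGDH-siRNA, and to 1510 ± 92.0 FPKM in Control-siRNA+Mix and 502 ± 80.0 FPKM in Control-siRNA. Without MT2A the sums were 201.3 ± 91.8 against 148 ± 59.1 FPKM and 206 ± 24.6 against 187 ± 31.2 FPKM. MT2A made up 86.0% to 91.9% of the sum in PHGDH-siRNA+Mix libraries and 59.6% to 72.5% in PHGDH-siRNA libraries. Its share was 85.6% to 87.2% in Control-siRNA+Mix libraries and 60.0% to 65.2% in Control-siRNA libraries. MT2A was 6.46, 16.5 and 6.60 times MT1E in PHGDH-siRNA+Mix, against 2.17, 3.599 and 1.54 times in PHGDH-siRNA. That ratio was 6.26, 6.80 and 7.21 in Control-siRNA+Mix, against 1.54, 1.76 and 1.96 in Control-siRNA. The groups did not overlap in either arm, and the ratio was not tested. As a share of all reads in the library the 8 genes took 0.202% ± 0.0390 in PHGDH-siRNA+Mix and 0.0561% ± 0.0153 in PHGDH-siRNA, and 0.189% ± 0.00832 in Control-siRNA+Mix and 0.0632% ± 0.00694 in Control-siRNA.

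**Figure D3:**
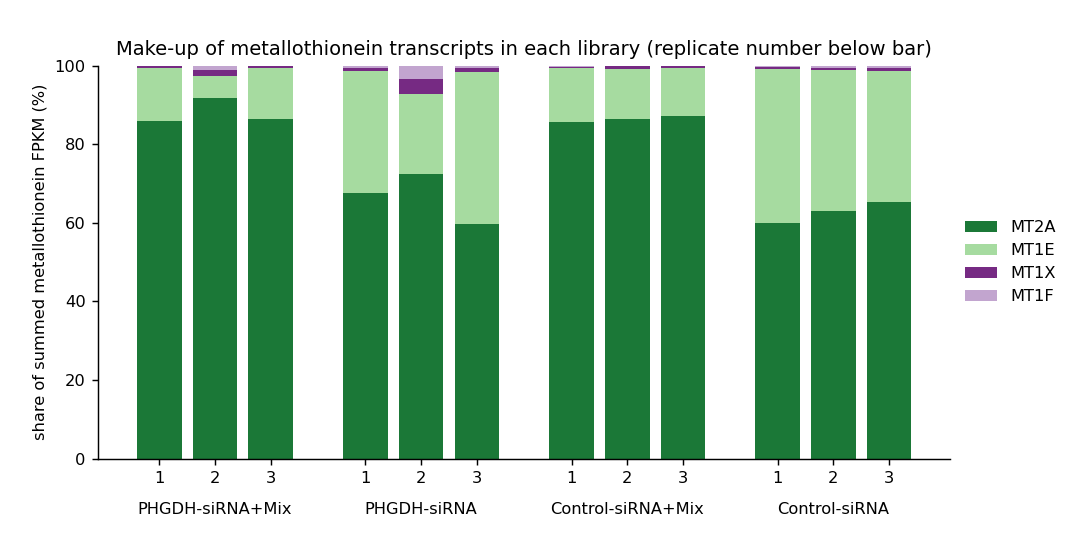
Share of the summed metallothionein FPKM (vertical axis, percent) taken by MT2A, MT1E, MT1X and MT1F in each library (horizontal axis, replicate numbers within the 4 groups); the other 4 genes together are too low to show. MT2A takes 85.6% to 91.9% in the libraries with Mix and 59.6% to 72.5% in those without.

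Within the PHGDH-siRNA arms the members split in opposite directions in the replicate 2 libraries. Against the mean of the other 2 libraries of its group on the log2 scale, MT1E was lower by 1.85 in PHGDH-siRNA+Mix replicate 2 and lower by 1.56 in PHGDH-siRNA replicate 2. MT1F was higher by 1.61 and 1.28 in these libraries, and MT1X by 0.89 and 1.24. MT2A lay at -0.53 and -0.59, but at 0.71 in PHGDH-siRNA replicate 1, so it did not single out the replicate 2 libraries. MT1E was 3.95 and 5.33 times MT1X there, and 19.5 to 52.8 times MT1X in the other 10 libraries. In the control-siRNA groups no library deviated by over 1 log2 unit in any of the 4 genes. The summed keratinocyte markers also moved with these libraries, which were the highest of their groups at 9404 and 7569 FPKM, and their part was not tested.

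**Figure D4:**
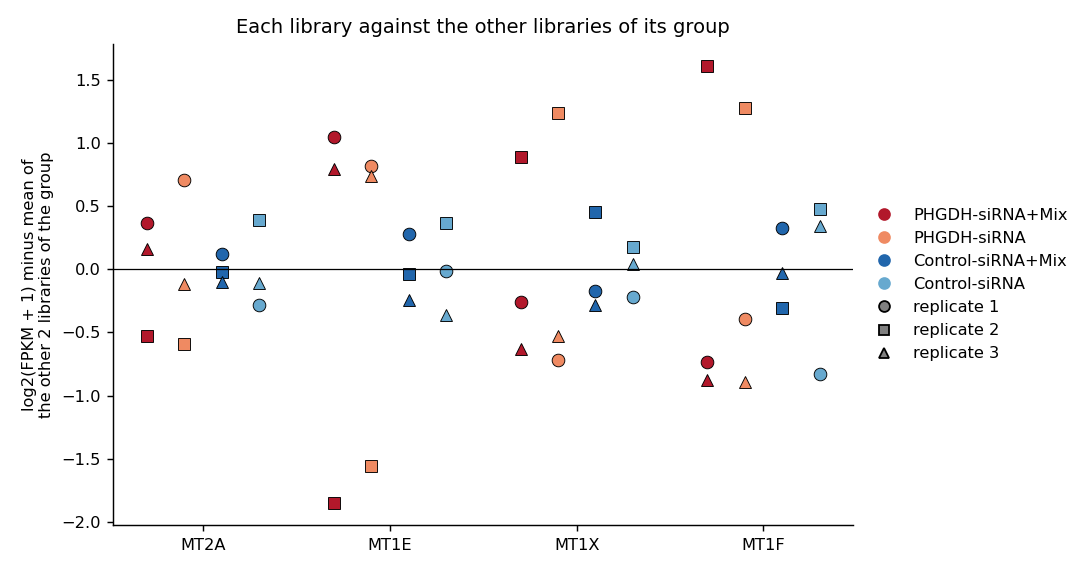
Difference of each library from the mean of the other 2 libraries of its group, in log2(FPKM + 1) (vertical axis), for the 4 tested genes (horizontal axis); colours mark groups and symbols replicate numbers. Replicate 2 of both PHGDH-siRNA groups lies at -1.85 and -1.56 for MT1E and at 1.61 and 1.28 for MT1F, outside the other libraries.

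Promoter sequence was available from RefSeq (build GRCh38.p14) for 3 of the 8 genes: MT2A and MT1X, both expressed, and MT1H, which had no reads. The 250 bases before each start were searched on both strands for the metal response element core, TGCACNC or TGCGCNC, where N is any base. MT2A held 7 matches, MT1H 8 and MT1X 4. At least 1 match was present in 24.8% of 35116 promoters, and as many as in each of the 3 genes in 0.0313% (MT2A), 0.0171% (MT1H) and 0.37% (MT1X). MT1H, with no reads, thus held the most matches of the 3. TATAAA was found in MT2A and MT1X and not in MT1H, against 10.7% of all promoters. TTCNNNGAA, the pattern bound by STAT factors, and TGACTCA, the pattern bound by AP-1, were found in MT2A alone of the 3, and in 6.57% and 4.2% of all promoters. A match is a description of the letters and does not show binding. The stretches below are shown because they carry some of these matches, with metal response element cores of either strand in capitals. For MT2A most of the core matches, TTCNNNGAA and TATAAA lie outside the stretches shown, as does TATAAA of MT1X. For MT2A, whose longest GENCODE transcript starts further upstream, these are 2 windows of 30 bases, at chr16:56608476-56608505 and chr16:56608524-56608553. For MT1H the stretch is chr16:56669564-56669813 and for MT1X chr16:56682220-56682423, all on the plus strand.
MT2A with TGACTCA: caagtgactcagcgcggggcGTGTGCAggc
MT2A before the TATA box: ggctttTGCACTCgtcccggctctttctag
MT1H: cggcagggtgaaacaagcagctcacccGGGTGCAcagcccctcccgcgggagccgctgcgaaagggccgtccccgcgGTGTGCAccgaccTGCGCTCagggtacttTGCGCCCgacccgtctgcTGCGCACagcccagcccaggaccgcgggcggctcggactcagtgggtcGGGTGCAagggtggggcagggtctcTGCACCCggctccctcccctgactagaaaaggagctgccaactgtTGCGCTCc
MT1X: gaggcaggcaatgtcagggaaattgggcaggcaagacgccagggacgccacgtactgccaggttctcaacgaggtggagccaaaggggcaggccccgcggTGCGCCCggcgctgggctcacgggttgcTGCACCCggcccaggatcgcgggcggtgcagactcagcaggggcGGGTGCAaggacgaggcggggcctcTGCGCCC

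Neighbours of the cluster within 250 kb were looked at beside it. NUP93, which encodes a nuclear pore protein, was called lower, as were 3.64% of tested genes under PHGDH siRNA and 3.92% under control siRNA: -0.46 under PHGDH siRNA (limma adjusted p = 0.00927) and -0.47 under control siRNA (limma adjusted p = 0.00717). NUDT21, HERPUD1, OGFOD1 and BBS2 had uncalled changes of -0.14 to 0.30 under PHGDH siRNA and -0.12 to 0.15 under control siRNA. With the replicate block in the PHGDH-siRNA arm, HERPUD1, a protein of the endoplasmic reticulum, was called at 0.30 (limma adjusted p = 0.0237).

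Of 13 other metallothionein genes and pseudogenes 6 were tested, and the pseudogenes MT2P1 and MT1L rose with Mix, with levels that are uncertain because reads of near copies may have been assigned to the wrong gene. MT2P1, on chromosome 4, had 50.3, 30.7 and 37.2 FPKM in PHGDH-siRNA+Mix, against 9.90, 3.70 and 3.81 FPKM in PHGDH-siRNA (log2 fold change 2.66, SE 0.391, limma adjusted p = 0.00187). It had 42.0, 39.8 and 35.9 FPKM in Control-siRNA+Mix, against 2.12, 7.95 and 4.63 FPKM in Control-siRNA (2.90, SE 0.391, limma adjusted p = 0.000861). The groups did not overlap in either arm. MT2P1 differs from the MT2A coding sequence in 5 bases, and its reads were few beside those of MT2A, at 0.35% to 0.429% in PHGDH-siRNA+Mix and 0.204% to 0.361% in PHGDH-siRNA, and 0.406% to 0.434% in Control-siRNA+Mix and 0.109% to 0.299% in Control-siRNA. MT1L, inside the cluster, averaged 39.7 ± 8.08 FPKM in PHGDH-siRNA+Mix and 17.3 ± 4.81 FPKM in PHGDH-siRNA (1.17, limma adjusted p = 0.0186), and 40.04 ± 2.29 FPKM in Control-siRNA+Mix and 17.6 ± 6.36 FPKM in Control-siRNA (1.2, limma adjusted p = 0.0155). MT1XP1 was called lower with Mix under control siRNA (-0.72, limma adjusted p = 0.0353) on 0 reads in Control-siRNA+Mix and 7 reads in Control-siRNA. The pseudogene MT1DP, with 36 reads over all 12 libraries, was called only once the replicate 2 libraries of the PHGDH-siRNA groups were left out of that fit. It was then lower with Mix under control siRNA (-0.43, limma adjusted p = 0.0361). For PHGDH siRNA it was lower without Mix (-0.90, limma adjusted p = 0.033) and averaged (-0.43, limma adjusted p = 0.0477). There 21%, 0.707% and 3.55% of all tested genes were called. MT3 and MT4, known from brain and from stratified epithelia, had 0 reads.

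Because the genes are near copies, part of their reads may have been split or dropped in the authors' counting, whose handling of reads with several matches is not given in the sources used here. Of all 50-base windows in their GENCODE 29 transcripts, 3.02% in MT2A, 7.1% in MT1E, 18.3% in MT1X and 1.22% in MT1F also occurred exactly in a transcript of another gene. Of 100-base windows, 0% were shared in MT2A, MT1E and MT1F, and 11.3% in MT1X, all with the overlapping AC026461.1, which was at 0 in all 12 libraries. The low levels of MT1G and MT1H were measured over genes with 16.5% and 15.8% shared 50-base windows.

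Few zinc transporters were called with Mix unless the PHGDH-siRNA arm was fitted with the replicate block. Of 18 tested, 1 (5.56%) rose under PHGDH siRNA and 2 (11.1%) under control siRNA, beside 5.22% and 5.62% of all tested genes, and none fell, with list medians of 0.13 and 0.14 beside all-gene medians of 0 and 0.004. Without the replicate 2 libraries 2 rose under PHGDH siRNA, where 8.23% of all tested genes rose, and 3 rose and 1 fell under control siRNA, where 11.2% rose and 9.86% fell. SLC30A7, which loads zinc into the secretory pathway, averaged 4.75 ± 0.470 FPKM in PHGDH-siRNA+Mix and 2.86 ± 0.394 FPKM in PHGDH-siRNA (0.57, limma adjusted p = 0.026), and 3.83 ± 0.262 FPKM in Control-siRNA+Mix and 2.29 ± 0.516 FPKM in Control-siRNA (0.56, limma adjusted p = 0.0264). SLC39A8, a zinc importer known to be induced in inflammation, averaged 1.84 ± 0.441 FPKM in Control-siRNA+Mix and 0.564 ± 0.0440 FPKM in Control-siRNA (0.85, limma adjusted p = 0.0434). In the PHGDH-siRNA arm it had 1.06, 3.29 and 1.44 FPKM with Mix and 0.503, 0.812 and 0.637 FPKM without, and was called with the replicate block (0.76, limma adjusted p = 0.043) but not without it. That block called 5 zinc transporters higher in the PHGDH-siRNA arm, SLC30A7, SLC39A8, SLC39A6, SLC39A13 and SLC39A14, where 14.6% of all tested genes were called higher. MTF1, the zinc sensor that drives metallothionein genes, stood at 0.28 under PHGDH siRNA (limma adjusted p = 0.162, and 0.0459 with the replicate block) and 0.27 under control siRNA (limma adjusted p = 0.171). SLC39A10, a zinc importer, stood at 0.42 (limma adjusted p = 0.614) and 0.52 (limma adjusted p = 0.535).

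SLC30A1, the zinc exporter of the plasma membrane and a known MTF1 target, was not called with Mix. Its log2 fold change with Mix was -0.16 under PHGDH siRNA (95% interval -0.62 to 0.29, limma adjusted p = 0.713) and -0.21 under control siRNA (95% interval -0.66 to 0.24, limma adjusted p = 0.645). Its levels under PHGDH siRNA were 5.36, 3.44 and 3.50 FPKM in PHGDH-siRNA+Mix against 2.31, 2.08 and 1.70 FPKM in Control-siRNA+Mix, and 4.005, 5.96 and 4.11 FPKM in PHGDH-siRNA against 3.35, 1.78 and 2.51 FPKM in Control-siRNA. The groups did not overlap with or without Mix, beside 7.01% and 4.89% of tested genes in this direction. The differences were 0.74 with Mix (limma adjusted p = 0.474), 0.69 without (limma adjusted p = 0.477) and 0.71 averaged (SE 0.146, limma adjusted p = 0.0762), none past the threshold. With the replicate 2 libraries left out, the averaged difference was 0.68 (SE 0.145, limma adjusted p = 0.0426) and passed, as did that of the zinc importer SLC39A14 (0.41, limma adjusted p = 0.0393), where 1.98% of all tested genes were called higher. The values with Mix (0.83, limma adjusted p = 0.136) and without Mix (0.53, limma adjusted p = 0.327) did not pass.

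Other known inputs to metallothionein transcription were looked at by list. Of 12 tested STAT3 and acute-phase genes, 7 (58.3%) rose under PHGDH siRNA and 10 (83.3%) under control siRNA, beside 5.22% and 5.62% of all tested genes, and none fell, with medians of 1.04 and 1.5. These counts were 8 and 10 without the replicate 2 libraries, beside 8.23% and 11.2% of all tested genes. SOCS3, a feedback inhibitor of cytokine signalling, averaged 46.6 ± 15.45 FPKM in PHGDH-siRNA+Mix and 6.01 ± 2.38 FPKM in PHGDH-siRNA (2.76), and 61.0 ± 2.17 FPKM in Control-siRNA+Mix and 4.30 ± 0.760 FPKM in Control-siRNA (3.56). LCN2, which binds bacterial siderophores, changed by 4.04 and 4.59, SAA2, an acute-phase protein, by 2.34 and 2.94, and OSMR, the oncostatin M receptor, by 1.44 and 1.55, all with a limma adjusted p of at most 0.000216. STAT3 itself rose under PHGDH siRNA (0.34, limma adjusted p = 0.0493), the one call among 10 metal-responsive regulators there, and there was none under control siRNA by limma or voom, with 2 at a raw p under 0.05. STAT3 passed there at 0.33 without the replicate 2 libraries (limma adjusted p = 0.017). Of 9 glucocorticoid-response genes, 2 (22.2%) rose and 1 (11.1%) fell in both arms, beside 5.22% and 5.62% of all tested genes called higher and 3.64% and 3.92% called lower: SGK1, a kinase, by 2.09 and 2.75, and ERRFI1, an inhibitor of EGF receptor signalling, by 1.12 and 1.72, while GLUL, glutamine synthetase, stood at -0.45 and -0.67. The medians of that list were -0.06 and -0.02. Without the replicate 2 libraries 3 rose and 0 fell under PHGDH siRNA, and 4 rose and 2 fell under control siRNA.

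In the fit of 12 libraries the thiol and copper genes called with Mix were lower, and no heat-shock gene was called. Of 16 glutathione and thioredoxin genes, 2 (12.5%) fell under PHGDH siRNA and 3 (18.8%) under control siRNA, beside 3.64% and 3.92% of all tested genes, and none rose. With the replicate 2 libraries left out, 4 and 6 fell, beside 6.85% and 9.86% of all tested genes, and 1 rose in each arm. GSR, glutathione reductase, stood at -0.90 and -0.87 and GCLC, which catalyses the first step of glutathione synthesis, at -0.69 and -0.75 (limma adjusted p of 0.000797 to 0.00465), and TXN2, the mitochondrial thioredoxin, at -0.43 under control siRNA (limma adjusted p = 0.0422). Of 16 copper-handling genes, STEAP3, a metalloreductase, fell under control siRNA (-0.83, limma adjusted p = 0.0352), and 0 were called under PHGDH siRNA by limma or voom, with 2 at a raw p under 0.05. Left without the replicate 2 libraries, STEAP3 fell under PHGDH siRNA as well (-0.52, limma adjusted p = 0.0256), and 2 copper genes fell and 1 rose under control siRNA. Of 12 cytosolic heat-shock genes, 0 were called in either arm by limma or voom, with 1 at a raw p under 0.05 in each arm and medians of -0.20 and -0.13. With the replicate block in the PHGDH-siRNA arm, 10 STAT3 and acute-phase genes, 3 metal-responsive regulators, 3 glucocorticoid-response genes and 1 heat-shock gene (HMOX1) were called higher with Mix, beside 14.6% of all tested genes. There 6 glutathione and thioredoxin genes, 2 copper genes, 2 heat-shock genes and 1 glucocorticoid-response gene were called lower, beside 12.5% of all tested genes. No member of these 7 lists was called by limma for PHGDH siRNA against control siRNA, with Mix, without Mix or averaged, where 0 to 3 genes of a list had a raw p under 0.05. The voom fit called none there either. Leaving out the replicate 2 libraries, limma called 6 in the averaged contrast: SLC30A1 and SLC39A14 above, HMOX1, which degrades heme (0.77, adjusted p = 0.0367), DUSP1, a phosphatase of MAP kinases (0.80, adjusted p = 0.0406), TXNRD1, a thioredoxin reductase (0.53, adjusted p = 0.0287), and GLUL (-0.39, adjusted p = 0.0198). Higher and lower calls there came to 1.98% and 1.57% of all tested genes. GLUL was also called without Mix (-0.57, limma adjusted p = 0.0432), where 0.343% of all tested genes were called lower.

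**Figure D5:**
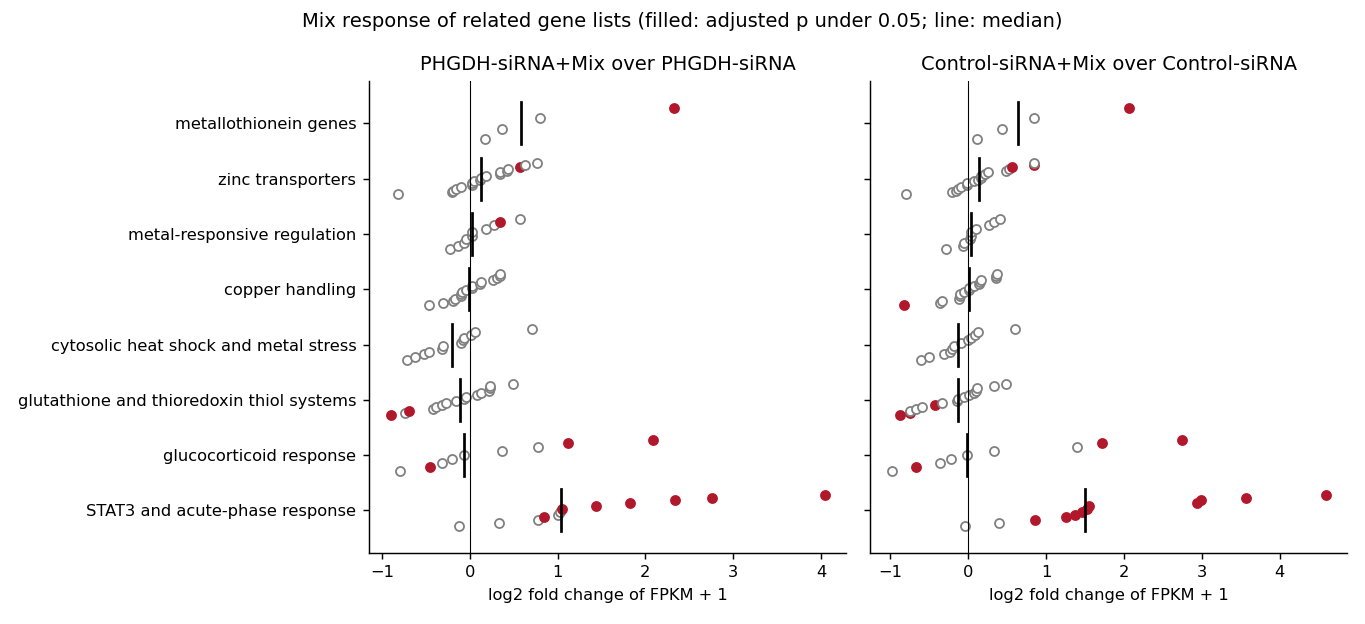
Log2 fold change of FPKM + 1 with Mix (horizontal axes) of the tested metallothionein genes and of 7 other lists (vertical axis), under PHGDH siRNA (left) and control siRNA (right); filled points passed an adjusted p of 0.05 and black lines mark list medians. STAT3 and acute-phase genes have medians of 1.04 and 1.5, and the zinc transporter medians lie at 0.13 and 0.14.

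The genes whose profile over the 12 libraries was most like that of MT2A were found by the root-mean-square difference of log2(FPKM + 1), each gene centred on its own mean, among genes outside the family with a mean of at least 1 FPKM. The nearest was IRAK2, a kinase-like adaptor of interleukin-1 and Toll-like receptor signalling, with a difference of 0.186. It had 6.81, 4.38 and 6.33 FPKM in PHGDH-siRNA+Mix, against 1.46, 0.449 and 0.693 FPKM in PHGDH-siRNA. It had 5.42, 5.67 and 5.61 FPKM in Control-siRNA+Mix, against 0.669, 0.787 and 0.577 FPKM in Control-siRNA. IRAK2 was thus high with Mix and lowest in replicate 2 of both PHGDH-siRNA groups, as MT2A was. It was picked for likeness over these same 12 libraries, so this match is no separate result. Next came TRAF1, an adaptor of TNF receptor signalling (0.28), PTAFR, the receptor for platelet-activating factor (0.283), SDCBP2 (0.29) and FAM83A-AS1 (0.301). TRAF1 was also lowest in replicate 2 of both PHGDH-siRNA groups, but PTAFR was highest there. Within the family MT2P1 (0.421) and MT1L (0.524) were nearest to MT2A, and MT1X (0.93), MT1E (1.07) and MT1F (1.24) were far from it. The likeness is a description over libraries that share the Mix contrast. Adding 1 to FPKM understates the changes of low genes such as IRAK2, which averaged 0.866 FPKM in PHGDH-siRNA and 0.678 FPKM in Control-siRNA. A near profile on this scale is thus not a like fold change.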

How the data were processed

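RNA-seq libraries of 12 HaCaT samples were made from total RNA with a NEBNext Ultra kit, per the labels' protocols. Tools named, per the submitters' processing notes, were featureCounts 1.5.0-p3, HISAT2 2.0.5 and CASAVA, and the build was hg38; settings are not stated. The deposited values are FPKM, made by the authors, for 58735 genes; the unit was read from the values. FPKM times gene length gave whole reads (100% of low values within 0.05 reads), so reads per library could be recovered. The library size implied by the FPKM was 0.93 to 1.1 times the sum of recovered reads, so the scaling was not to that sum.

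Genes with a mean of 0.5 FPKM in at least 1 group (14577) were tested with limma 3.58.1 (R 4.3.3; trend, robust) on log2(FPKM + 1), which understates changes of low genes: 1 mean per group, 12 libraries, 8 residual degrees of freedom, two-sided p-values adjusted by Benjamini-Hochberg over all tested genes, threshold 0.05. The fit was also run on simulated counts with the same relative spread for all genes and no libraries standing apart, unlike these data. That run does not bear on calls that change without the replicate 2 libraries. Alternatives were a pseudocount of 0.1, no filter, quantile normalization, voom with TMM factors on recovered reads, the replicate number as a block, the 2 groups alone, each library left out, and both replicate 2 libraries of the PHGDH-siRNA groups left out. Replicate numbers were taken as pairs of PHGDH-siRNA+Mix and PHGDH-siRNA, from the data and not the labels: all 3 same-numbered pairs deviated together (correlations of 0.459 to 0.775). A fit of that arm alone with the replicate block was therefore added after the data were seen, with fewer residual degrees of freedom. Correlations between libraries of unlike number were not computed. As replicate 2 stood apart in both groups, these correlations cannot show that replicates 1 and 3 are rightly paired.

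The genes, lists and the pair left out were chosen with earlier results of these data known. Named beside the 8 genes and PHGDH were up to 4 called members per list and comparison, some members whose call changed without the replicate 2 libraries, MTF1, SLC30A1 and SLC39A10, and the 5 genes with the profile nearest to MT2A. Some neighbours of the cluster and the STAT3 and AP-1 patterns were added for context. Levels per length of the coding transcript were added after the values were seen. Sequences are from GENCODE 29 and RefSeq.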

Additional observations from a re-analysis of the deposited data

How the results depend on the processing

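MT2A was called with Mix under all 19 alternatives under control siRNA (1.89 to 2.19) and all 20 under PHGDH siRNA (2.12 to 2.56); no alternative called MT1F, or any of the 4 genes for PHGDH siRNA. With the replicate block in the PHGDH-siRNA arm alone, added after the data were seen, 3 metallothionein genes (MT2A, MT1X, MT1E) and 3948 genes in all were called with Mix there. Elsewhere MT1X decided the number of metallothionein genes called with Mix: it was 2 in place of 1 under control siRNA with the replicate block (adjusted p = 0.0416), with the 2 groups alone (adjusted p = 0.0123) and without the replicate 2 pair, and under PHGDH siRNA without that pair. With single libraries left out it was 1 to 2 in both arms, 2 without PHGDH-siRNA replicate 2. Over all genes, the Mix calls under control siRNA (1391) were 2642 with the groups alone and 3063 without the pair, and 651 to 1782 with single libraries left out. Those under PHGDH siRNA (1291) were 761 without the filter, 238 with the groups alone and 2199 without the pair, and 674 to 1652 with single libraries left out. For PHGDH siRNA without Mix (6) they were 1 without the filter, 12 with quantile normalization, 0 with the replicate block or the groups alone and 103 without the pair, and 0 to 16 with single libraries left out. With Mix (3) they were 1 with a pseudocount of 0.1, 5 without the filter, 0 with the replicate block or the groups alone and 45 without the pair, and 0 to 6 with single libraries left out. The averaged contrast (71) gave 14 without the filter, 39 with the replicate block and 517 without the pair, and 3 to 89 with single libraries left out. The interaction (0) gave 5 without the filter. In the other comparisons the replicate numbers were not taken as pairs, since at most 1 of 3 same-numbered pairs had a correlation above 0.1; the replicate block in the fit of 12 libraries changed no other call of a metallothionein gene. Uncalled changes turned sign for MT1E with Mix under control siRNA (-0.04 with quantile normalization) and, without the pair, for MT2A without Mix (0.03) and averaged (0.15), MT1E with Mix (0.32) and averaged (0.14) in the siRNA contrasts, and MT1X in the interaction (0.07). The causes were not tested. With single libraries left out the sign also turned for MT1E with Mix (-0.01 to 0.23 under control siRNA, -0.15 to 0.98 under PHGDH siRNA) and MT1F under PHGDH siRNA (-0.36 to 0.60). In the siRNA contrasts it turned for MT2A (-0.40 to 0.03 without Mix, -0.03 to 0.27 with Mix, -0.15 to 0.06 averaged) and MT1E with Mix (-0.65 to 0.32). In the interaction it turned for MT1E (-0.26 to 0.87), MT1F (-0.81 to 0.16) and MT1X (-0.34 to 0.37). MT1F rests on 43 to 481 and MT1X on 108 to 550 reads per library. With 3 libraries a group the interval of MT1E with Mix under control siRNA spans -1.01 to 1.23.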
